A study of Homo sapiens with 10 samples.

Results

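Peaks of accessible chromatin on sequences outside the assembled chromosomes were examined in 10 ATAC-seq libraries: the mitochondrial sequence (chrM), the unplaced contigs (names starting chrUn_gl), the contigs assigned to a chromosome without a position (names ending _random), and the alternative haplotypes of chromosomes 4 and 17. Members were chosen by sequence name alone, as every peak on a sequence other than chromosomes 1 to 22, X and Y and the alternative haplotypes of chromosome 6. They came to 2044 of 207167 peaks over the 10 lists. Merged wherever peaks overlapped, they made 379 of 36375 regions, set here beside 35505 regions on chromosomes 1 to 22 and X. ATAC-seq uses a transposase that cuts accessible DNA and tags the cut ends, so a peak marks a stretch where such cuts pile up. The cells were CCRF-CEM, a human T lymphoblast line from a leukemia, either parental (labelled wild-type and SLFN11-positive) or SLFN11 knockout. Each genotype was given DMSO, 100 nM prexasertib (a CHK1 inhibitor) for 2, 4 or 6 h, or 100 nM camptothecin (a topoisomerase I poison) for 4 h, with 1 library per group. The sources used here do not say whether the knockout line is 1 clone, and neither SLFN11 nor the T-lymphoblast markers were checked, since no annotation of build hg19 was used. The submitters state that the raw data of the library from parental cells at 4 h of prexasertib are truncated, so counts over all lists are also given without it. With 1 library per group no difference has a replicate check, and no test was made between conditions.

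These sequences hold much of the repeated DNA of the human genome. Mitochondrial DNA is a small circle present in many copies per cell and carries no nucleosomes, and transposase cuts it freely wherever mitochondria reach the reaction. Ribosomal DNA codes for the 45S precursor of the 18S, 5.8S and 28S ribosomal RNAs and lies in long tandem arrays, of which the unplaced contig chrUn_gl000220 of hg19 holds a sample. Each repeat has a stretch transcribed by RNA polymerase I and a spacer, and only some of the repeats in a cell are open. Many other unplaced and random contigs carry satellite repeats or segmental duplications. Reads from all copies of a repeat can fall on the few copies in the assembly, so a height here sums an unknown number of copies, and a change in copy number and a change in accessibility per copy cannot be told apart.

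The members were spread over 47 sequences, and 25 of these had a peak in all 10 lists while 6 had a peak in 1 list only. By kind there were 201 regions on 28 unplaced contigs, 131 regions on 15 random contigs, 29 regions on the ribosomal DNA contig, 17 regions on 2 haplotypes and 1 region on chrM. The contig chr9_gl000199_random alone held 27.7% of all member peaks, chrUn_gl000225 held 11.3% and the ribosomal DNA contig held 8.86%. Parental cells had 171 member peaks with DMSO, 174, 192 and 264 at 2, 4 and 6 h on prexasertib, and 221 after camptothecin. Knockout cells had 187 with DMSO, 215, 200 and 226 at 2, 4 and 6 h on prexasertib, and 194 after camptothecin. As a share of each list this was 0.880% to 1.09%, with 95% exact binomial (Clopper-Pearson) intervals reaching from 0.767% to 1.26%. Each library's own interval covers counting error only.

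Member peaks were narrower and taller than peaks on chromosomes 1 to 22 and X, and stood on a higher local background. Their median width was 359 to 452 bp over the lists, against 487 to 609 bp. The deposited fold, which is the summit over the local background, had a median of 3.55 to 4.11, against 5.48 to 6.28. The deposited -log10 q-value had a median of 19.7 to 26.2, against 9.89 to 13.1. Height here means the summit pileup divided by the genome-wide background pileup of the same library, and its median over member summits was 65.9 to 82.2 in parental and 60.004 to 74.4 in knockout libraries, against 14.5 to 20.4. The local background around member summits had a median of 14.3 to 20.8 times the library background, against 2.14 to 2.56. These ranges do not overlap between members and chromosomes for any of the 5 measures. Peaks with more than 1 summit made 28.1% to 33.9% of member peaks and 17.5% to 22.8% of the others.

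Of the 379 member regions, 125 (33.0%) were called in all 10 lists, close to the 32.7% on chromosomes 1 to 22 and X. Another 130 (34.3%) were called in 1 list only, against 26.1%. Without the parental 4 h list the counts were 126 and 128. No member region was called in all 5 lists of a genotype and in none of the other. Among the 35505 regions on chromosomes 1 to 22 and X, 2 were called in all parental and no knockout lists. There, 128 were called in all knockout and no parental lists. Such regions were thus rare on the chromosomes too, and their absence among 379 member regions does not set the members apart.

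The mitochondrial sequence had 1 peak in every list, 16316 to 16411 bp wide, that started at base 85 to 137 and ended at base 16441 to 16537, over nearly the whole sequence. It carried 27 to 36 summits, and within a list the tallest was 1.16 to 1.27 times the lowest in pileup. No summit stood far above the others, and the stretches between summits were not measured. The deposited fold was only 1.20 to 2.64, because the local background of this peak is chrM itself. The median summit height of chrM in parental cells was 33717 times the library background with DMSO and 33593, 26021 and 18621 at 2, 4 and 6 h on prexasertib, and it was 21642 after camptothecin. In knockout cells it was 26119 with DMSO, 23512, 23370 and 20470 at 2, 4 and 6 h on prexasertib, and 23202 after camptothecin. The parental DMSO and 2 h libraries were highest, and the parental 6 h library was lowest of all 10.

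Against parental DMSO the log2 change of the chrM height was -0.01 at 2 h, -0.37 at 4 h and -0.86 at 6 h of prexasertib, and -0.64 after camptothecin. At 6 h this was 44.8% lower, and after camptothecin 35.8% lower. Knockout values over their own DMSO library were -0.15, -0.16, -0.35 and -0.17 in that order, and at 6 h this was 21.6% lower. The DMSO libraries themselves differed, the parental one being higher by 0.37 on the log2 scale, while after 6 h of prexasertib the parental library stood at -0.14 relative to the knockout. The 4 comparisons within a genotype share 1 DMSO library. The standard deviation of log2 height among the summits of chrM in a library was 0.06 to 0.10. That is a spread between positions in 1 library and does not measure how chrM height varies between libraries of the same condition. Undivided by the library background, the median pileup still fell by 0.96 on the log2 scale at 6 h and by 0.82 after camptothecin in parental cells, and in knockout cells it changed by 0.25, 0.05, -0.03 and -0.05 (2, 4 and 6 h of prexasertib, camptothecin). The parental decrease at 4 h, at 6 h and after camptothecin was thus seen with and without division by the background, while the knockout decrease was smaller or turned to an increase without it.

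**Figure D1:**
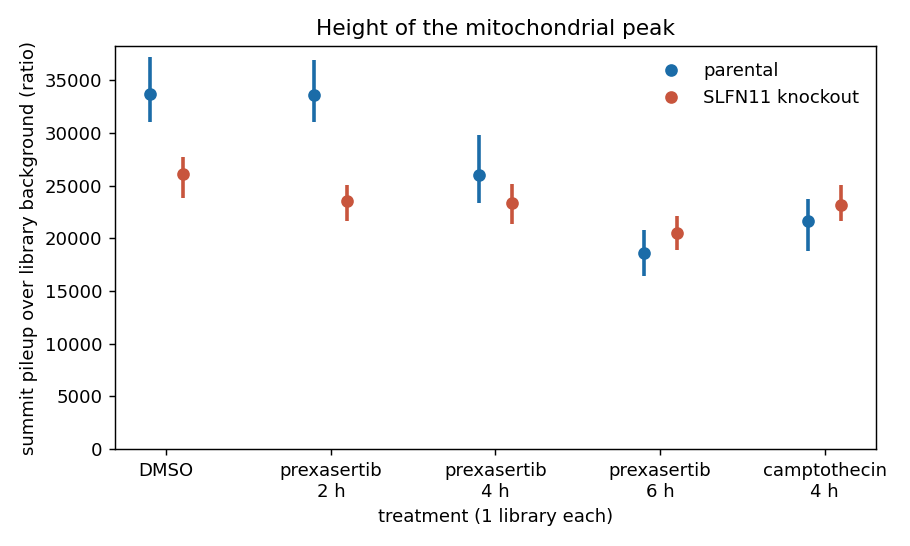
Height of the mitochondrial peak, as summit pileup over the library's background pileup (vertical axis, ratio), in 10 libraries by treatment (horizontal axis) for parental and SLFN11 knockout cells. Points are medians over the summits of chrM in 1 library and lines run from the lowest to the highest summit; the parental points fall from 33717 with DMSO to 18621 after 6 h of prexasertib, and the knockout points lie between 20470 and 26119.

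The genome-wide background pileup of a library counts mitochondrial reads too. If the peak caller's effective genome size was 2.7e+09 bases, a value the sources do not state, chrM made up 15.1%, 15.0%, 11.6%, 8.19% and 9.93% of the background in the parental libraries (DMSO, prexasertib at 2, 4 and 6 h, camptothecin). In the same order it made up 11.8%, 10.9%, 10.3%, 9.48% and 10.9% in the knockout libraries. Taking chrM out of the background moves every parental log2 height change by -0.06 at 4 h, -0.11 at 6 h and -0.08 after camptothecin. The shifts in knockout cells lay between -0.04 and -0.02. The values below are given with chrM in the background unless stated.

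A region of mitochondrial-like sequence on chromosome 1 (chr1:566076-566748), which is no member and was singled out after its values were seen, moved alongside chrM. Its height was 4941 in parental DMSO, 4986, 4311 and 3597 at 2, 4 and 6 h on prexasertib and 3876 after camptothecin. In knockout cells it was 3967 with DMSO, 3459, 3529 and 3176 after 2, 4 and 6 h, and 3693 after camptothecin. Its parental log2 change was -0.46 at 6 h and -0.35 after camptothecin, smaller than that of chrM. How many of its reads came from mitochondria was not tested.

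On the ribosomal DNA contig the tallest accessible stretches rose in parental cells with either drug, and rose less in knockout cells at 6 h of prexasertib and after camptothecin. The contig had 29 regions, of which 11 were called in all 10 lists. It held 14 peaks with parental DMSO, 14, 21 and 26 at 2, 4 and 6 h on prexasertib and 24 after camptothecin. Knockout cells had 14 peaks with DMSO, 17, 16 and 19 after 2, 4 and 6 h, and 16 after camptothecin. The whole lists differed in length too. In the same order they held 16204, 15992, 18418, 24126 and 22558 peaks in parental cells. In knockout cells they held 20583, 24438, 21903, 23730 and 19215. How much of the contig's count follows the length of the list was not tested. The peaks covered 12352 bp with parental DMSO and 18646 bp at 6 h, and 13771 bp and 16990 bp in knockout cells.

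The tallest region, chrUn_gl000220:117275-119127, had a height of 307 with parental DMSO, 343, 434 and 550 at 2, 4 and 6 h on prexasertib, and 514 after camptothecin. In knockout cells its height was 431 with DMSO, 492, 563 and 490 after 2, 4 and 6 h, and 448 after camptothecin. The parental DMSO library was the lowest of the 10 and the knockout 4 h library the highest. The parental log2 change was 0.84 at 6 h (95% counting interval 0.68 to 1.00) and 0.74 after camptothecin (0.58 to 0.91). The knockout log2 change was 0.38 at 4 h (0.24 to 0.52), 0.18 at 6 h (0.04 to 0.32) and 0.05 after camptothecin (-0.09 to 0.20). With DMSO alone the parental library stood below the knockout, at a log2 difference of -0.49 (-0.66 to -0.32). Over the median summit height of chromosomes 1 to 22 and X in place of the library background, the parental changes were 0.014, 0.026, 0.52 and 0.40 (2, 4 and 6 h, camptothecin) and the knockout changes 0.33, 0.44, 0.35 and 0.18. On that scale the parental change was below the knockout one at 2 and 4 h and above it at 6 h and after camptothecin. That median is over each list's own peaks, and the parental list grew from 16204 peaks with DMSO to 24126 at 6 h and 22558 after camptothecin. Over chromosomal regions called in both lists, the median log2 change was 0.96 and 0.78 in parental cells (6 h, camptothecin). It was 0.03 and -0.20 in knockout cells. The tallest region's parental changes lay below these medians and its knockout changes above them. The counting intervals treat the pileup as independent reads of 1 library and leave out any spread between cultures.

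Other stretches of the contig rose in parallel. The region chrUn_gl000220:104463-107364 had a height of 255, 311, 340, 460 and 369 in parental cells (DMSO, prexasertib at 2, 4 and 6 h, camptothecin) and 314, 374, 405, 371 and 330 in knockout cells. Its log2 change was 0.85 at 6 h and 0.53 after camptothecin in parental cells, and 0.24 and 0.07 in knockout cells. The region chrUn_gl000220:161024-161643 had the largest rise among the tall ones. This region is the partner of the tallest region 1 repeat further on, so the 2 are not independent, as described below. It stood at 194, 242, 292, 388 and 338 in parental cells and 240, 274, 292, 278 and 246 in knockout cells, a parental log2 change of 1.00 at 6 h and 0.80 after camptothecin. The region at chrUn_gl000220:93145-94115, much lower, rose from 36.1 to 74.8 at 6 h and 74.7 after camptothecin in parental cells, against 55.2, 54.2 and 45.4 in the matching knockout libraries.

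Between the tall stretches lay stretches of intermediate height, some level and some higher after treatment. The region chrUn_gl000220:126517-127957 stood at 176, 204, 192, 167 and 172 in parental cells and 152, 142, 159, 138 and 166 in knockout cells. Its parental log2 change was -0.08 at 6 h (-0.32 to 0.17) and -0.04 after camptothecin (-0.28 to 0.21), within the counting error. The region chrUn_gl000220:141877-142940 stood at 122, 154, 148, 174 and 177 in parental cells and 114, 101, 115, 116 and 128 in knockout cells. Its parental log2 change was 0.52 at 6 h (0.25 to 0.78) and 0.54 after camptothecin (0.27 to 0.81), and its knockout change 0.02 (-0.26 to 0.30) and 0.16 (-0.12 to 0.44). The low region chrUn_gl000220:55033-55634 went from 34.9 with DMSO to 28.9 at 6 h in parental cells, within counting error (log2 -0.27, -0.84 to 0.29). In knockout cells it went from 39.5 to 25.1 (log2 -0.66, -1.19 to -0.12). Of the 18 regions of the contig not named here, 8 were low (10.3 to 45.9), 6 were intermediate (133 to 239) and 4 were taller (234 to 328), over the lists that called them. The spread inside this 1 contig therefore covered both rising and level stretches in the same library.

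The outermost region, chrUn_gl000220:6576-8289, had the highest deposited fold on the contig in every list, 7.28 to 10.05. Its height was 178, 169, 212, 261 and 252 in parental cells and 218, 210, 218, 202 and 190 in knockout cells. The tall regions had a low fold in spite of their height: chrUn_gl000220:117275-119127 stood 1.47 to 2.18 times over its local background. That background was 200, 236, 261, 281 and 237 times the library background in parental cells and 241, 285, 296, 264 and 245 times in knockout cells. It was higher at 6 h than with DMSO in parental cells, so the fold column shows the parental change of this summit at 6 h as 0.41 on the log2 scale in place of 0.84. Over the whole contig the highest local background in a list was 200 to 306, above that of any other member sequence except chrM.

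Part of the profile recurred along the contig. Summits lying about 43.9 kb apart were more frequent than summits at any other spacing searched: 115 pairs over the 10 lists lay within 200 bp of that spacing, with a median of 43947 bp, and the next best spacing gave 78. A human ribosomal DNA repeat is known to have about this length. The region chrUn_gl000220:104463-107364 and its partner 1 spacing further on, chrUn_gl000220:148523-151569, had similar heights, with the widest gap in knockout DMSO (314 and 352). The partner stood at 256, 320, 352, 453 and 390 in parental cells and 352, 375, 398, 370 and 332 in knockout cells. The partner's knockout log2 change was 0.07 at 6 h and -0.09 after camptothecin, beside 0.24 and 0.07. Reads that fit both copies equally well can be placed on either, so the pair is not 2 independent measurements. The sparser pair chrUn_gl000220:112155-112571 and chrUn_gl000220:156016-156527 was called in 4 lists each, and in parental cells after 6 h it stood at 424 and 417. Other partners differed in height, so the whole profile did not repeat. With parental DMSO the outermost region, chrUn_gl000220:6576-8289, stood at 178 and its partner 1 spacing further on at 26.9. The region chrUn_gl000220:126517-127957 stood at 176 in that library, and its partner 1 spacing before it at 20.2.

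**Figure D2:**
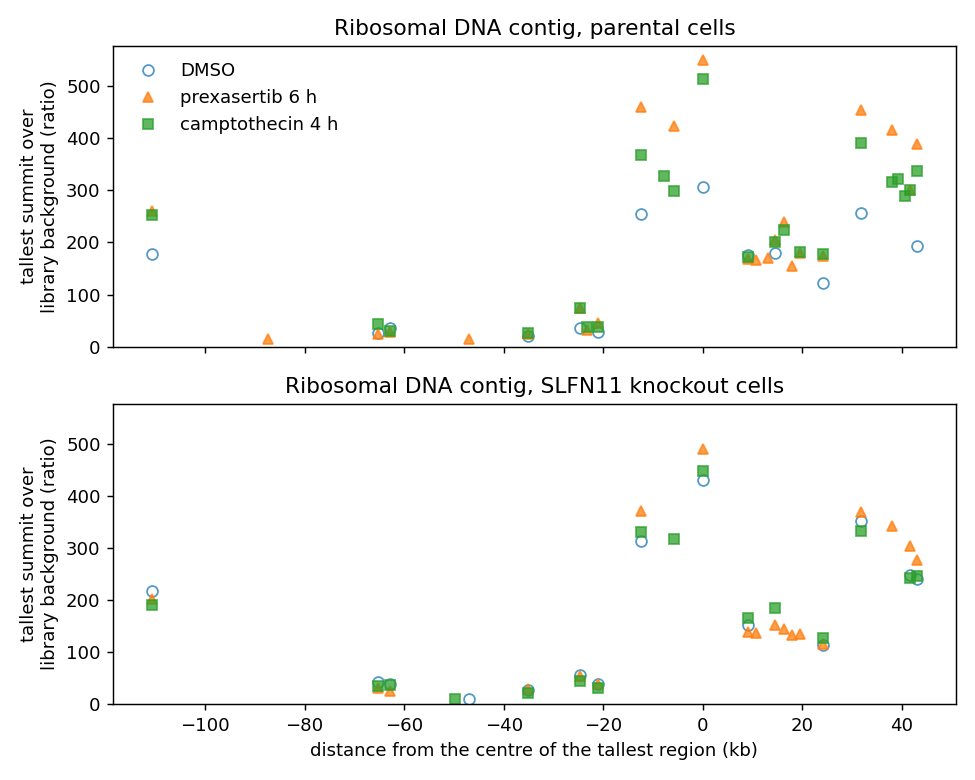
Height of each region on the ribosomal DNA contig (vertical axis, tallest summit over the library's background pileup) against its distance from the centre of the tallest region (horizontal axis, kb), in parental (top) and SLFN11 knockout cells (bottom). Each symbol is 1 region in 1 library: DMSO (circles), 6 h of prexasertib (triangles) or camptothecin (squares). The libraries at 2 and 4 h are not drawn. In parental cells the tallest region goes from 307 to 550 and 514. In knockout cells it goes from 431 to 490 and 448.

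Of the 12 ribosomal DNA regions called in both parental libraries at 2 h, 10 were higher (median log2 change 0.30), beside 66.2% of all regions in the series. At 4 h 11 of 12 were higher (median 0.27), beside 88.8%. Of 13, 10 were higher after 6 h of prexasertib (median 0.55), beside 90%. After camptothecin 11 of 13 were higher (median 0.53), beside 91.3%. In knockout cells 5 of 13 were higher at 2 h (median -0.08), beside 61%, and 9 of 12 at 4 h (median 0.08), beside 58.2%. The counts were 8 of 13 at 6 h (median 0.03), beside 52.4%, and 5 of 13 after camptothecin (median -0.08), beside 27.9%. In parental cells the share was thus above that of the series at 2 h and, slightly, at 4 h, and below it at 6 h and after camptothecin, where the median change on chromosomes 1 to 22 and X was 0.96 and 0.78. Partner regions 1 repeat apart are counted separately in these counts and are not independent.

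Several contigs of high local background changed little. On chr9_gl000199_random, which had 66 regions with 44 in all 10 lists, the parental median log2 changes were -0.15, -0.17, -0.14 and -0.08 (2, 4 and 6 h of prexasertib, camptothecin). In knockout cells they were -0.06, -0.07, 0.22 and 0.16. Its tallest region, chr9_gl000199_random:72269-73269, stood at 612, 535, 597, 608 and 607 in parental cells and 642, 551, 612, 724 and 675 in knockout cells. A second tall region, chr9_gl000199_random:34313-34705, stood at 455, 436, 500, 584 and 507 in parental cells and 430, 376, 421, 549 and 490 in knockout cells. For both regions the knockout 6 h library stood above knockout DMSO, and for the first it was the highest of the 10.

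The unplaced contig chrUn_gl000226 had the tallest region outside chrM, chrUn_gl000226:4942-7702. Its height was 586, 616, 588, 593 and 590 in parental cells and 694, 671, 659, 822 and 702 in knockout cells. The neighbouring region chrUn_gl000226:13110-14931 stood at 542, 546, 539, 533 and 537 in parental cells and 653, 597, 584, 785 and 651 in knockout cells. Both were level in parental cells and lower there than in knockout cells in each matching pair of libraries. The region chrUn_gl000228:116241-119372 differed in that it stood at 469, 501, 622, 648 and 555 in parental cells, with knockout values of 443, 404, 444, 531 and 493. Among other contigs of high local background, the tallest summit of chr7_gl000195_random varied from 252 to 330 over the 10 libraries, that of chr17_gl000205_random from 234 to 322, and that of chrUn_gl000224 from 76.7 to 112. Not all contigs with a local background over 10 were level in parental cells at 6 h: the log2 change of the tallest summit was -0.18 on chr7_gl000195_random, 0.22 on chr17_gl000205_random, 0.47 on chrUn_gl000228, 0.49 on chrUn_gl000224, 0.83 on chrUn_gl000216, 0.95 on chrUn_gl000214 and 1.00 on chrUn_gl000225.

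Over the unplaced contigs as a whole, regions stood higher in parental cells with both drugs. The median log2 change over unplaced contigs without the ribosomal DNA contig was 0.13, 0.47 and 0.62 at 2, 4 and 6 h on prexasertib and 0.28 after camptothecin in parental cells. In knockout cells it was -0.07, 0.08 and 0.31, and 0.06 after camptothecin. At 6 h 58 of 62 such regions (93.5%) were higher in parental cells, near the 90% over all regions of the series, and 55 of 63 (87.3%) in knockout cells, beside 52.4%. On chrUn_gl000225 the tallest summit stood at 176, 196, 262, 350 and 239 in parental cells and 166, 155, 196, 238 and 193 in knockout cells. On chrUn_gl000216 it stood at 244, 267, 363, 434 and 340 in parental cells and 254, 237, 279, 302 and 271 in knockout cells. On both contigs the 6 h library was the highest in each genotype.

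The tallest summits of the other sequences with a peak in every list spanned smaller levels. Over the 10 libraries they ranged from 88.7 to 164 on chrUn_gl000212, from 77.1 to 155 on chrUn_gl000222, from 51.4 to 98.2 on chrUn_gl000219 and from 28.8 to 61.7 on chrUn_gl000214. Lower still were chr19_gl000208_random (43.5 to 52.9), chrUn_gl000235 (19.4 to 53.1), chrUn_gl000243 (14.9 to 36.7) and chrUn_gl000223 (15.9 to 35.2). The lowest were chr4_gl000193_random (12.6 to 30.8), chr9_gl000198_random (4.86 to 29.7), chr1_gl000192_random (9.48 to 22.1) and chrUn_gl000241 (9.72 to 15.1). Height varied least over the libraries on chr19_gl000208_random, by a ratio of 1.22, and most on chr9_gl000198_random, by 6.12.

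**Figure D3:**
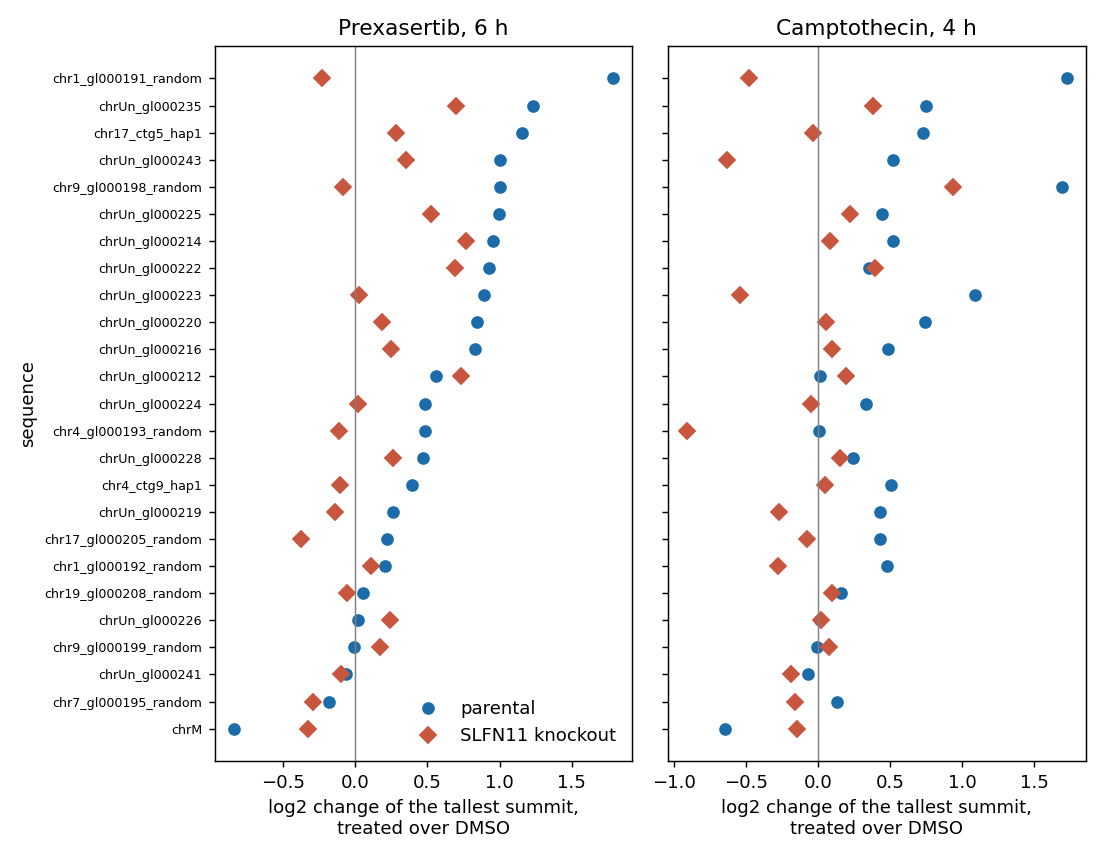
Log2 change of the tallest summit of each of the 25 sequences with a peak in all 10 lists (vertical axis), after 6 h of prexasertib (left) and 4 h of camptothecin (right), each over the DMSO library of the same genotype (horizontal axis). Each symbol compares 2 libraries. In parental cells chrM is lowest, sequences such as chr9_gl000199_random and chrUn_gl000226 lie near 0, and chr1_gl000191_random is highest. In knockout cells chr1_gl000191_random lies at -0.23 at 6 h and -0.48 after camptothecin. At 6 h chr9_gl000199_random lies there at 0.17 and chrUn_gl000226 at 0.24.

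The largest changes were at low regions of the random contigs and the chromosome 17 haplotype. The region chr17_ctg5_hap1:1513374-1514266 stood at 12.9, 14.2, 35.5, 47.2 and 29.1 in parental cells and 23.8, 26.7, 23.8, 24.6 and 14.9 in knockout cells. Its parental log2 change at 6 h was 1.88 (1.18 to 2.58), the largest of any member, and its knockout change after camptothecin was -0.67, the lowest there. The region chr1_gl000191_random:28939-29996 stood at 16.5, 28.4, 41.5, 57.1 and 54.6 in parental cells and 28.8, 32.9, 35.7, 24.6 and 20.7 in knockout cells. Its parental log2 change was 1.79 at 6 h (1.16 to 2.41) and 1.73 after camptothecin (1.09 to 2.36), the largest for camptothecin. The second region of that contig, chr1_gl000191_random:49817-50668, rose from 13.5 to 38.0 and 39.4 in the same libraries. In parental DMSO both regions were the lowest of the 10 libraries. The intervals in this paragraph cover counting error only and do not allow for the choice of regions by their extreme change.

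At the other end in parental cells, after chrM, was chr9_gl000199_random:146343-147569, which went from 94.3 with DMSO to 63.6 at 6 h (log2 -0.57). After camptothecin chr9_gl000199_random:149287-150558 went from 71.6 to 45.7 (log2 -0.65). In knockout cells at 6 h, chrUn_gl000235:1670-2358 went from 17.6 to 31.6 (log2 0.85) and chrUn_gl000214:64327-65330 from 28.2 to 49.1 (0.80). The lowest there were chrUn_gl000220:55033-55634 (log2 -0.66) and chr1_gl000192_random:418501-419076, from 7.52 to 5.01 (-0.59). After camptothecin in knockout cells, chrUn_gl000223:119208-119996 went from 7.52 to 12.6 (log2 0.75), chr9_gl000199_random:41470-41751 from 52.0 to 80.5 (0.63) and chrUn_gl000219:41951-42825, at 78.4 with DMSO, was lower (-0.65).

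Between the DMSO libraries, chr17_ctg5_hap1:379981-380831 was lower in parental cells (11.0) than in knockout cells (23.8), a log2 difference of -1.11. The region chr1_gl000192_random:15622-16422 was lower by the same amount, at 5.51 against 11.9. The regions chrUn_gl000216:169486-169698 (73.5 against 46.4) and chrUn_gl000225:45954-46440 (57.5 against 37.6) were higher in parental cells, by 0.66 and 0.61 on the log2 scale. Over the 142 member regions called in both DMSO libraries the median was -0.06, against -0.40 on chromosomes 1 to 22 and X.

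The haplotypes of chromosomes 4 and 17 are alternative versions of chromosomal sequence, and their regions lay nearer in height and in change to those of the chromosomes. Their local background was at most 5.31 times the library background. In parental cells the median log2 change of the regions called in both libraries was 0.74 at 6 h and 0.67 after camptothecin, with 7 of 7 regions higher in each, near the 90% and 91.3% over all regions. In knockout cells it was -0.01 over 10 regions and -0.33 over 8 regions. The single region of chr4_ctg9_hap1 stood at 19.0, 21.0, 24.9, 24.9 and 27.0 in parental cells and 19.4, 18.6, 17.8, 18.1 and 20.1 in knockout cells. The tallest summit of chr17_ctg5_hap1 rose from 25.1 to 55.8 at 6 h in parental cells and from 28.8 to 35.1 in knockout cells. Reads of such a haplotype also match the chromosome, and how they were divided was not tested.

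Over all members, the median log2 height change in parental cells was -0.01, 0.21 and 0.31 at 2, 4 and 6 h on prexasertib and 0.15 after camptothecin. On chromosomes 1 to 22 and X it was 0.15, 0.59, 0.96 and 0.78. In knockout cells the members changed by -0.08, 0.00, 0.22 and 0.05, against 0.09, 0.07, 0.03 and -0.20. At 6 h in parental cells 17 of 148 member regions (11.5%) were at least 2-fold higher, beside 46.8% of all regions, and after camptothecin 9 of 147 (6.12%), beside 31.2%. In knockout cells no member was at least 2-fold higher in either, of 159 at 6 h and 150 after camptothecin, beside 0.283% and 0.116%. Pileups not divided by a background turned the parental member median at 4 h and after camptothecin below 0 (-0.10 and -0.024), and gave 0.32, 0.21, 0.55 and 0.18 in knockout cells, of opposite sign at 2 and 4 h. The deposited fold turned the sign at 2 h in parental cells (0.013) and at 6 h and after camptothecin in knockout cells (-0.019 and -0.028). Without the ribosomal DNA contig and chrM the parental median was 0.29 at 6 h and 0.13 after camptothecin.

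**Figure D4:**
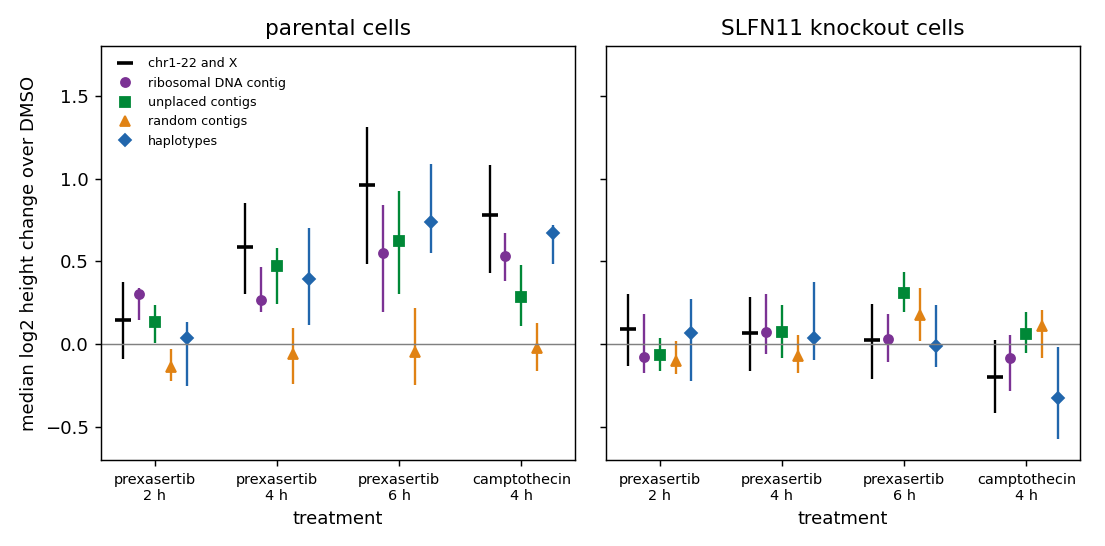
Median log2 height change over the DMSO library of the same genotype (vertical axis) for each treatment (horizontal axis), in parental (left) and SLFN11 knockout cells (right), by kind of sequence, over regions called in both libraries. Lines run from the lower to the upper quartile over regions, which are not replicates; in parental cells at 6 h chromosomes 1 to 22 and X lie at 0.96, unplaced contigs at 0.62 and random contigs at -0.04.

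Over the members together, the change in parental cells at 6 h and after camptothecin was smaller where the local background was high. Members were split by the local background in the DMSO list of the other genotype, at 10 times the library background, a split chosen after the values were seen. The 95 members above it had a median log2 change of 0.14 at 6 h, and the 42 below it 0.67. After camptothecin the medians were 0.07 over 95 and 0.48 over 43. Regions of high local background on chromosomes 1 to 22 and X showed the same direction, with a median of 0.44 over 249 regions at 6 h, against 0.96 for all. Across members, Spearman's rho between that local background and the log2 change was taken for each treatment. In parental cells it was -0.09 at 2 h and -0.45 at 4 h, over 133 regions each. It was -0.47 at 6 h over 137 and -0.45 after camptothecin over 138. In knockout cells rho was -0.02 at 2 h over 138 regions and -0.23 at 4 h over 137. At 6 h it was -0.04 over 139, and after camptothecin 0.20 over 136. These points share 2 libraries and are not independent. The contig chr9_gl000199_random alone had 44 regions in all 10 lists, with a parental median of -0.14 at 6 h. Other contigs of high local background changed by differing amounts, as given above. How far the relation rests on that 1 contig was not tested.

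Taken singly, the parental shares of member regions that appeared or disappeared as called peaks were of the same order as those of all regions. In parental cells 31 member regions were gained and 23 lost at 2 h, that is 8.18% and 6.07% of 379, beside 7.18% and 7.79% of all regions. At 4 h 40 were gained (10.6%, beside 11.4%) and 22 lost (5.80%, beside 5.88%). At 6 h 102 were gained (26.9%, beside 24.5%) and 16 lost (4.22%, beside 3.98%). After camptothecin 63 were gained (16.6%, beside 20.3%) and 17 lost (4.49%, beside 3.8%). In knockout cells 48 were gained and 21 lost at 2 h, beside 16.1% and 5.27% of all regions. The counts were 40 and 24 at 4 h, beside 11.2% and 7.55%, and 64 and 22 at 6 h, beside 15% and 6.28%. After camptothecin 39 were gained and 31 lost, beside 7.01% and 10.8%. There member gains exceeded losses, while over all regions losses exceeded gains. The same held in parental cells at 2 h. Between the DMSO libraries 22 member regions were called only in parental and 39 only in knockout cells, beside 4.13% and 16.1%. The knockout and DMSO counts are likewise of 379 member regions. With each list kept to its 15992 strongest peaks, gains minus losses in parental cells were 11, 5, 29 and 7 in place of 8, 18, 86 and 46. In knockout cells they were -4, 0, 3 and 12 in place of 27, 16, 42 and 8, and between the DMSO libraries 4 in place of -17. Background pileup, which follows depth, ranged from 1.33 (parental 4 h) to 2.1 (knockout 2 h), and its part in these counts was not tested.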

How the data were processed

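Per the submitters' processing notes, reads on build hg19 went through BWA 0.7.17, MACS2 2.1.2, Picard 2.9.2, SAMtools 1.8, Trimmomatic 0.39 and Trim Galore 0.6.2 in an order the notes do not state. Parameters and any filter on mitochondrial or duplicate reads are likewise not stated in the sources used here. The deposited lists give the fold of each summit over its local background, a ratio, and its -log10 p-value and -log10 q-value. Lines with the same start and end were counted as 1 peak.

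The pileup and local background of each summit were solved from the deposited fold and p-value. The solution gave back the deposited -log10 p-value within 0.001 for at least 99.7% of all summits of a list. Other summits were kept when the solved pileup lay within 0.1 of a whole number. The smallest background is that of the library, and height is pileup over it. For chrM, whose pileup is too large to resolve as a whole number, the continuous solution was used. On the ribosomal DNA contig 3 summit lines of the knockout 2 h list could not be recovered and were left out. Regions are unions over the 10 lists merged at an overlap of at least 1 bp. A region was gained when called in the treated and not in the DMSO list of its genotype. The steps other than the chrM solution were tested on simulated data. Those data were built from summits already recovered and with the same formula, so they do not test whether the formula holds. With 1 library per group no test was made.

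Members and lists were chosen with earlier results of these data known. By rule the text names the ribosomal DNA and chrM regions, every sequence with a peak in all lists, the 5 other regions of greatest mean height, and the 2 largest and 2 smallest log2 changes at 6 h of prexasertib, after camptothecin and between the DMSO libraries. Alternatives were another threshold, lists of equal length, other overlaps and other divisors of the pileup. Python 3.11.15, numpy 2.4.6, scipy 1.17.1, pandas 2.3.3 and matplotlib 3.10.9 were used. No sequences are shown, since no genome of build hg19 was used.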

Additional observations from a re-analysis of the deposited data

Results flagged for a closer look

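In 10 cases the median log2 height change over DMSO had opposite signs in parental and knockout cells. Each compares 1 library with 1 library in either genotype, and the difference between the genotypes was not tested. After 2 h of prexasertib the median was 0.30 in parental and -0.075 in knockout cells on the ribosomal DNA contig, and 0.13 and -0.066 on the unplaced contigs. After 4 h it was 0.21 and -0.0036 over all members, a knockout value next to 0. After 6 h it was 0.74 and -0.0076 on the haplotypes, -0.045 and 0.18 on the random contigs, and -0.14 and 0.22 on chr9_gl000199_random, which is itself 1 of the random contigs. After camptothecin it was 0.53 and -0.080 on the ribosomal DNA contig, 0.67 and -0.33 on the haplotypes, -0.023 and 0.11 on the random contigs, and -0.081 and 0.16 on chr9_gl000199_random. Chromosomes 1 to 22 and X also had opposite signs after camptothecin (0.78 and -0.20). Medians over 7 to 10 regions stand behind the haplotype values and over 12 or 13 behind the ribosomal DNA values.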

How the results depend on the processing

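No paired analysis was possible because each group has 1 library. Of 173 recomputed values, 102 kept their direction and stayed near the value reported, 52 moved and 19 changed sign. The cause was not tested where none is given. In the lists below the comparisons over DMSO stand in the order parental 2, 4 and 6 h of prexasertib and camptothecin, then the same in knockout cells.

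Counting every summit line gave 3418 member peaks in place of 2044. With peaks of a -log10 q of at least 10 only, 16 regions in place of 130 were called in 1 list, and gains minus losses were 4, 11, 48 and 26 in parental cells, 16 (2 h), 14 (6 h) and 4 (camptothecin) in knockout cells, and -10 between the DMSO lists. Without that threshold they were 8, 18, 86 and 46, then 27, 42 and 8, and -17. With lists of equal length they were 5, 29 and 7 in parental cells from 4 h on, -4, 0 and 3 at 2, 4 and 6 h in knockout cells, and 4 between the DMSO lists, so the knockout 2 h and DMSO counts changed sign; fewer peaks entered. A reciprocal overlap of 50% gave 3 at 2 h in parental cells.

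For the member median, the deposited fold gave 0.013 at 2 h in parental cells and -0.019 at 6 h and -0.028 after camptothecin in knockout cells, all of opposite sign. Pileup not divided by a background gave -0.16, -0.095 and -0.024 in parental cells (2 h, 4 h, camptothecin) and 0.32, 0.21, 0.55 and 0.18 in knockout cells. The threshold on q gave 0.0043 at 4 h in knockout cells, beside -0.0036. With chrM taken out of the background, an alternative chosen after the data were seen, the parental camptothecin median was 0.067, beside 0.15.

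For the tallest ribosomal DNA summit, the deposited fold gave -0.062, 0.14, 0.41 and 0.50 in parental cells, -0.11 and 0.14 at 2 and 4 h in knockout cells, and -0.28 between the DMSO libraries. Total peak width gave 0.21, 0.59 and 0.42 in parental cells from 4 h on, 0.22 at 4 h in knockout cells and -0.16 between the DMSO libraries. Over the median summit height of chromosomes 1 to 22 and X the change was 0.026, 0.52 and 0.40 in parental cells from 4 h on, and 0.33 and 0.35 at 2 and 6 h in knockout cells. That median is over each list's own peaks, whose number differed between lists.

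For chrM, the deposited fold, whose local background is chrM itself, gave 0.011, 0.093, 0.086 and -0.078 in parental cells, -0.012, 0.068, -0.029 and 0.0090 in knockout cells, and 0.075 between the DMSO libraries. Over the median summit height of chromosomes 1 to 22 and X the change was -0.15, -0.85, -1.18 and -0.99 in parental cells, -0.0084, -0.19 and -0.045 in knockout cells (2 h, 6 h, camptothecin) and 0.52 between the DMSO libraries. That median is again over each list's own peaks. Pileup not divided by a background, also chosen after the data were seen, gave -0.15, -0.68 and -0.82 in parental cells (2 h, 4 h, camptothecin) and 0.25, 0.055, -0.029 and -0.045 in knockout cells. The central mean pileup and the background without chrM kept all 9 chrM changes near the values reported. Depth is known only as a background pileup, and heights on repeats sum an unknown number of copies.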
